A study of Mus musculus with 58 samples.

Results

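The homeostasis genes of Müller glia were followed as a set of 7 genes, Glul, Slc1a3, Kcnj10, Aqp4, Sox9, Apoe and Clu, taken by symbol from a count table of 52459 gene symbols. All 7 were found in the table, and all 7 were among the 19120 genes expressed in these retinas (median above 4 normalised counts over all libraries). RNA had been sequenced from 58 single retinas of male mice of the C57BL/6-Ins2Akita/J line at 4 months of age, 30 from controls and 28 from diabetic animals. Diabetic mice were heterozygous for Ins2Akita, an allele of the insulin gene Ins2 whose misfolded product damages the beta cells of the pancreas from early life, and controls were wild-type littermates. All mice lived in a cycle of 12 h light and 12 h dark with free access to food, were perfused with cold saline before dissection, and were sampled once each at zeitgeber time (ZT, hours after lights on) 1, 5, 9, 13, 17 or 21, with 4 to 6 retinas per genotype and time point. Night samples were taken under dim red light. Since the Akita allele is a point mutation in a gene of the pancreas, gene counts in the retina do not check the genotype labels, and the diabetic animals model diabetes of early onset from insulin loss in a light cycle, not in constant darkness.

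Müller glia are the radial glia of the retina, which span its whole thickness and wrap the neurons and vessels. They take up glutamate released by neurons and turn it into glutamine, carry potassium and water from the neural tissue to the vitreous and the vessels, and supply lipids to neurons. Loss of these functions together with gliosis is a known feature of the diabetic retina. In the set, Slc1a3 encodes GLAST, the main glutamate transporter of these cells, and Glul encodes glutamine synthetase, which makes glutamine from that glutamate. Kcnj10 encodes the potassium channel Kir4.1 and Aqp4 the water channel aquaporin-4, which share the perivascular end-feet. Sox9 is the transcription factor of glial identity, and Apoe and Clu encode apolipoprotein E and clusterin, which are lipid carriers secreted by the glia.

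On the GRCm38 mouse genome with the Gencode M21 annotation, Glul lies on the plus strand of chromosome 1 at 153899944 to 153909723, and Kcnj10 lies on the same chromosome and strand at 172341210 to 172374085. Slc1a3 is on the minus strand of chromosome 15 at 8634124 to 8710764, Sox9 on the plus strand of chromosome 11 at 112782224 to 112787760, Apoe on the minus strand of chromosome 7 at 19696109 to 19699188, and Clu on the plus strand of chromosome 14 at 65968483 to 65981547. All 7 members are protein-coding genes, and reads were counted over their exons. The exons of Glul share 116 bases with Teddm2 on the opposite strand and hold Mir8114, which averaged 56.3 and 0.207 raw counts per library against 33630 for Glul. No other member shared exon bases with another gene.

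RefSeq promoters were at hand for 4 of the 7 members, Glul, Slc1a3, Kcnj10 and Apoe. Each runs from 250 bases before to 50 after a start listed for the promoter, which need not be the gene bound given above. Those of Glul and Kcnj10 are shown because the levels of these 2 genes moved together over the day and between libraries, and that of Slc1a3 is shown for comparison because its level hardly varied. They lie at chr1:153899679-153899978 on the plus strand, chr1:172340960-172341259 on the plus strand and chr15:8710758-8711057 on the minus strand of GRCm38.p6, and capitals mark a match to 1 of 4 motifs searched on both strands.
Glul: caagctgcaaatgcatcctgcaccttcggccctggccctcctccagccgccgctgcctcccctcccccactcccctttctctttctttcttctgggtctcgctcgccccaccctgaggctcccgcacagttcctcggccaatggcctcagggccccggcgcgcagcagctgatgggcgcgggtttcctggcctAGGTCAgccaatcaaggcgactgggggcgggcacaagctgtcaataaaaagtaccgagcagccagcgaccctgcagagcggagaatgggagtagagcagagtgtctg
Kcnj10: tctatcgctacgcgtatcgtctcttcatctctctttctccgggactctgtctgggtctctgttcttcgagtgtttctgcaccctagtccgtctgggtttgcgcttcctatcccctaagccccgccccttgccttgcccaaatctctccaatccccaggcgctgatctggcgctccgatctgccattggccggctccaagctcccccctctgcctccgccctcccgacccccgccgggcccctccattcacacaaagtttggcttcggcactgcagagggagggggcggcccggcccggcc
Slc1a3: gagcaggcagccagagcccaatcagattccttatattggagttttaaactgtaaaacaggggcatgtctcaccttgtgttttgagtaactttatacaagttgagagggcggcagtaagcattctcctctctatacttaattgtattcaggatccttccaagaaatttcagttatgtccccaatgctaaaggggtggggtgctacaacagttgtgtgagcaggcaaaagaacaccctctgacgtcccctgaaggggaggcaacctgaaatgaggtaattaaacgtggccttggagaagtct
The motifs were the E-box CACGTG of the clock factors, the D-box TTATGTAA, the half-site AGGTCA of the ROR and REV-ERB receptors and the SOX core ACAATG, and no match overlapped another. Glul holds AGGTCA with its first base at position -57 from the start listed for its promoter. The 1st of 3 promoters listed for Apoe holds ACAATG at -144, while the windows of Kcnj10 and Slc1a3 hold none of the 4. Of 32851 mouse promoters of the same length, 16.3% hold AGGTCA, 12.6% ACAATG, 7.15% CACGTG and 0.938% TTATGTAA, so a match is a common event and is given as a description only. The Glul and Kcnj10 windows have a GC content of 64.3% and 63.7%, against 45.3% for Slc1a3.

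The libraries held 7773117 to 22147398 counted reads, with a median of 15260957 in controls and 15471730 in diabetic retinas. The 7 markers of Müller glia, which overlap with the set, summed to 3407 to 4084 CPM (counts scaled to the size of the library) in controls and to 3220 to 4368 CPM in diabetic retinas. Astrocyte markers summed to 18.03 to 29.8 CPM in controls and 22.7 to 51.1 CPM in diabetic retinas, and rod markers to 35703 to 48054 and 30286 to 45619 CPM. In 3 control libraries, ZT1 replicate 6, ZT17 replicate 5 and ZT21 replicate 2, lens markers summed to 2592, 1639 and 1934 CPM, against at most 58.7 CPM in the other libraries. In 4 libraries, control ZT9 replicate 4, control ZT17 replicates 1 and 3 and diabetic ZT17 replicate 3, GC-rich genes were raised relative to GC-poor genes by 0.33 to 0.45 on the log2 scale per 10 percentage points of GC content, against -0.22 to 0.19 in the other 54. This GC trend bears on the set because the transcripts of the members run from 41.4% GC in Aqp4 to 59.5% in Apoe. Many of the fold changes and rhythm calls that rest on these libraries are given with and without them, as alternatives chosen after the data were seen.

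The members differed widely in level. Compared per kilobase of merged exon length, in normalised counts, Glul stood highest with a lowest, median and highest value over the 58 libraries of 7753, 9706 and 11905. Apoe followed with a median of 2433 per kilobase and Clu with 1492, and each of these 3 was above the next in 58 of 58 libraries. Aqp4 had a median of 301 per kilobase and Slc1a3 273, and these neighbours overlapped, Aqp4 being the higher in 43 of 58 libraries. Their order turned with the length used. Per kilobase of the longest transcript, a choice made after the data were seen, Slc1a3 had a median of 526 and Aqp4 of 372, Slc1a3 being the higher in 58 of 58 libraries, and the order of the other members stayed. Kcnj10 had a median of 226 per kilobase, below Slc1a3 in 57 of 58 libraries, and Sox9 was lowest in every library with a median of 116, Glul being a median of 80.1 times above it. In the same single retinas, transcripts of Glul were thus measured far above those of Slc1a3, by either length. Kcnj10 lay below Slc1a3 by both lengths, and the place of Aqp4 depended on the length. Protein was not measured.

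The spread between retinas of the same group differed among the members as well. Over the 12 groups, the standard deviation (SD) within a group was 6.30% of the mean for Slc1a3 and 7.61% for Glul, against 9.69% for Kcnj10, 10.99% for Aqp4, 13.6% for Clu, 16.4% for Sox9 and 19.95% for Apoe. With all libraries, Slc1a3 and Glul were the steadiest members, and Apoe, Sox9 and Clu the most variable. The spread was not computed without the libraries of steep GC trend. In control ZT17, replicates 1 and 3, both of steep trend, held 8751 and 9108 normalised counts of Apoe. Replicates 2, 4 and 5 held 4494 to 5892. The part of the GC trend in the spread was not tested.

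The first comparison asked whether the diabetic retinas differed from control retinas in the level of these genes. Over all time points, none of the 7 members passed the test (edgeR quasi-likelihood, Benjamini-Hochberg adjusted p under 0.05), where 572 of 19120 genes did, or 2.99%. This fit held genotype alone, with no term for the time point. At an unadjusted p under 0.05 there was 1 member of 7, Clu, where 2970 of 19120 genes, or 15.5%, had such a p, and DESeq2 called 0 of 7.

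The mean of Glul was 32377 ± 3005 normalised counts (SD, n = 30) among controls, and among diabetic animals it was 32383 ± 3310 (SD, n = 28). The values ran from 25842 through a median of 32243 to 38430 in control and from 25763 through 32358 to 39561 in diabetic retinas, so that both groups covered the same range. The fitted log2 fold change, diabetic against control, was 0.00 with a standard error (SE) of 0.04 and a 95% interval of -0.07 to 0.07. Slc1a3 ran from 2136 through a median of 2345 to 2715 in control and from 1919 through 2330 to 2674 in diabetic retinas. Its log2 fold change was -0.01 with a 95% interval of -0.06 to 0.04, the narrowest of the set.

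For the channels, Kcnj10 ran from 892 through a median of 1212 to 1399 normalised counts in control and from 1022 through 1230 to 1656 in diabetic retinas, with a log2 fold change of 0.05 (95% interval -0.04 to 0.13). Aqp4 ran from 1468 through 1879 to 2423 in control and from 1279 through 1889 to 2291 in diabetic retinas, with a log2 fold change of -0.03 (-0.13 to 0.07). The ranges of the genotypes overlapped for most of their width in both channels, and the upper bound for Kcnj10 and the lower bound for Aqp4 limit a change of either channel to 0.13 on the log2 scale in those directions.

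Sox9 ran from 418 through a median of 518 to 722 normalised counts in control and from 371 through 456 to 708 in diabetic retinas, with a log2 fold change of -0.12 (95% interval -0.23 to 0.00, adjusted p = 0.338 by edgeR's quasi-likelihood test). Apoe ran from 3865 through 5244 to 9108 in control and from 3850 through 5156 to 7615 in diabetic retinas, with a log2 fold change of -0.08 (-0.21 to 0.06). Clu ran from 4334 through 5226 to 7547 in control and from 3850 through 4851 to 6712 in diabetic retinas. Its log2 fold change of -0.13 ± 0.05 (SE) was the largest of the 7, with an unadjusted p of 0.0179 and an adjusted p of 0.200 in the edgeR fit. Over 74 alternatives of fit, scaling and choice of libraries or time points its adjusted p was between 0.0607 and 0.441. Without the 4 libraries of steep GC trend, the log2 fold change was -0.02 for Apoe, -0.10 for both Clu and Sox9, -0.06 for Aqp4, -0.03 for Slc1a3, 0.05 for Kcnj10 and 0.00 for Glul, and none passed the test. The mean of Clu, over all libraries, was lower in diabetic retinas at 6 of 6 time points, as was that of Sox9, without passing the test.

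At the single time points no member passed the edgeR test either, with 0 of 7 at an unadjusted p under 0.05 and 0 of 7 by DESeq2 at each of the 6. Of all genes 0.167% were called at ZT17, 0.0209% at ZT5, 0.0105% at ZT1, 0.00523% at ZT9 and 0% at both ZT13 and ZT21 (852 and 892 genes there had an unadjusted p under 0.05 in edgeR, and DESeq2 called 1 and 2), so few genes of any kind were called there. In all 42 pairs of member and time point the ranges of the genotypes overlapped, as they did in most pairs of any gene, with no overlap in 1.34% of the 114720 pairs over all expressed genes. The ratio of the diabetic to the control mean stayed between 0.867, in Clu at ZT1, and 1.082, in Kcnj10 at ZT21. The smallest p was that of Glul at ZT1 (0.0710 unadjusted, adjusted p = 0.966 in edgeR), where the control retinas held 31033, 31052, 32342, 32645 and 33706 normalised counts and the diabetic retinas 25763, 28245, 30058, 30410 and 31567. These p-values measure the spread between animals that the labels call biological replicates, 1 retina each.

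The second comparison asked which members follow the day. A rhythm was called by empirical JTK_CYCLE, a rank test of a series against 24-h waveforms, at p under 0.05 with the highest library more than 25% above the lowest. The p limit is that of the study, which set its fold limit on the minimum and maximum predicted by its JTK software. Between single libraries the fold limit removed few genes, since 4172 of 4276 passed it in control and 4565 of 4621 in diabetic retinas. In control retinas 3 of the 7 members were called, Glul, Kcnj10 and Aqp4, and in diabetic retinas 4, the same 3 and Clu. All of their fitted maxima fell in the dark phase. By this rule 21.8% of all expressed genes were called in control and 23.9% in diabetic retinas, and of these 4172 and 4565 genes 2052 and 2366 had their maximum in the dark phase. With the JTK p adjusted over all genes, 1 member was called in control retinas, Glul, and 3 in diabetic retinas, Glul, Aqp4 and Clu, against 8.23% and 9.8% of all genes. With the limit of 25% set on the means of time points instead, only Aqp4 was called in control, and Aqp4, Clu and Kcnj10 in diabetic retinas, against 13.2% and 14.2% of all genes.

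**Figure D1:**
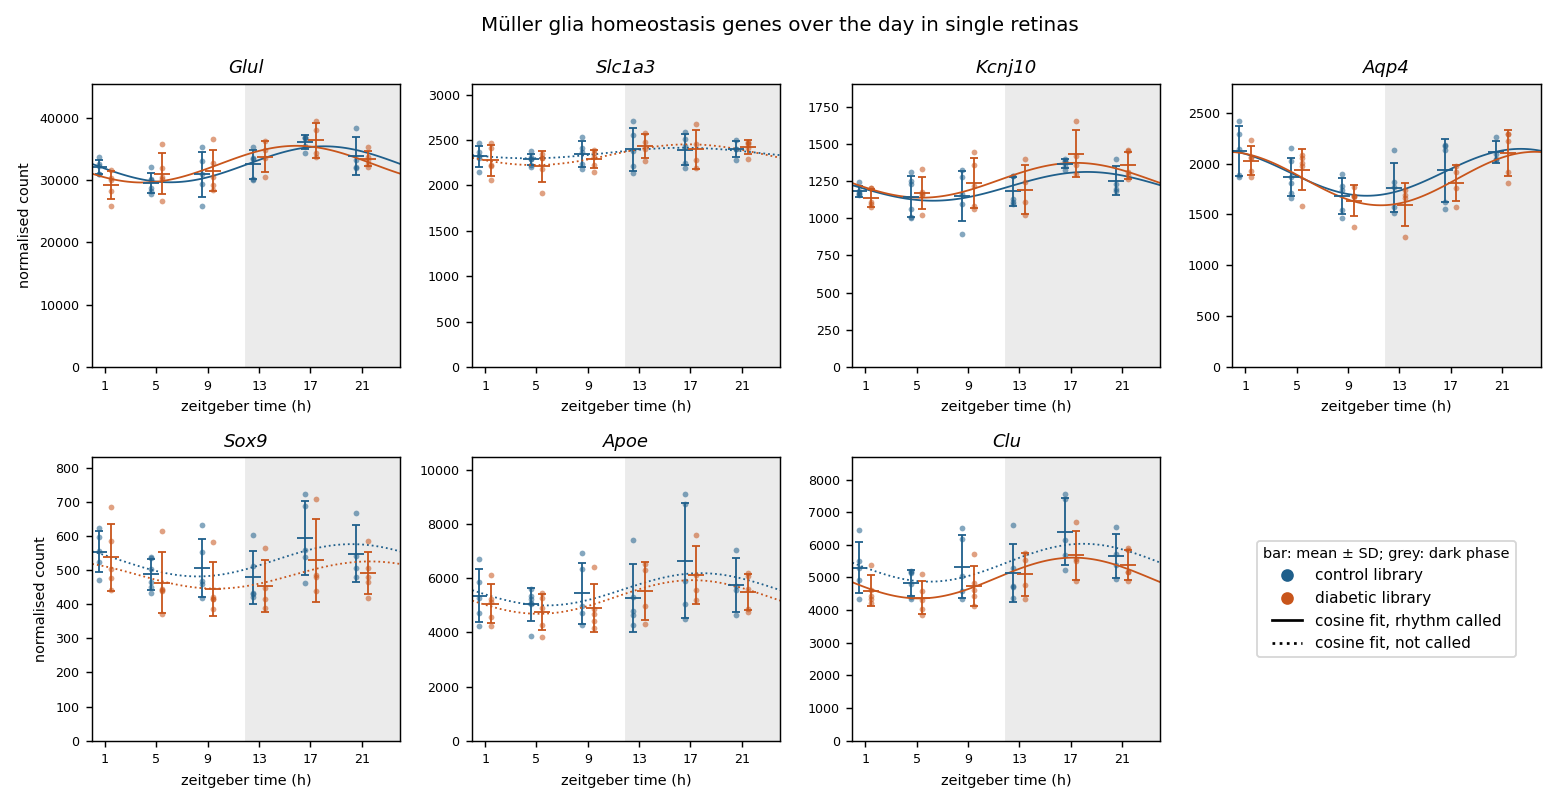
Normalised counts (y axis, from 0) of the 7 members in each of the 58 retinas against zeitgeber time in hours (x axis), for control (blue) and diabetic (orange) mice. Bars are mean ± SD of 4 to 6 retinas, curves are cosine fits with a 24-h period, solid where a rhythm was called, and grey marks the dark phase; Glul, Kcnj10 and Aqp4 have solid curves in both genotypes and Clu in the diabetic retinas.

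Glul was lowest in the day and highest at ZT17 in control retinas. The 6 control values at ZT5 were 27831, 28261, 28780, 29999, 30167 and 32110 normalised counts, and the 5 at ZT17 were 34411, 35425, 36751, 36842 and 36899, so that each retina at ZT17 was above each at ZT5. In diabetic retinas the values were 26677, 30194, 30531, 32019 and 35786 at ZT5 and 33787, 34303, 38004 and 39561 at ZT17, where the highest retina at ZT5 lay among those at ZT17. The cosine fit had a relative amplitude of 8.88% ± 1.75 (SE) of the mean and a maximum at ZT18.1 ± 0.77 h in control retinas (JTK p = 0.000985 in a permutation test). In diabetic retinas the relative amplitude was 9.05% ± 2.24 and the maximum came at ZT15.9 ± 0.91 h (JTK p = 0.00134, permutation test). Leaving out any 1 library changed neither call, and the JTK p stayed at or below 0.00234 in control and 0.00493 in diabetic retinas. The highest mean of a time point was 1.22 times the lowest in control retinas, and neither genotype was called where the limit of 25% was set on those means.

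Aqp4 followed another course, highest at the end of the night and in the first hour of light. In control retinas its 5 values at ZT9 were 1468, 1539, 1740, 1777 and 1896 normalised counts, and the 4 values at ZT21 were 2032, 2049, 2099 and 2266, with no overlap. At ZT1 the control values were 1864, 1884, 2146, 2295 and 2423, where the lowest 2 lay at the level of the highest at ZT9. In diabetic retinas the 4 values at ZT13 were 1279, 1664, 1695 and 1740, and the 5 at ZT21 were 1807, 1921, 2219, 2289 and 2291, again with no overlap. The fitted maximum was at ZT22.5 ± 0.88 h in control and ZT23.6 ± 0.71 h in diabetic retinas, with relative amplitudes of 12.1% ± 2.95 and 14.2% ± 2.60 (SE) and JTK p-values of 0.00682 and 0.000629 in the permutation test. The water channel thus peaked 4.39 h after Glul in control and 7.64 h after it in diabetic retinas, a description of 2 fits that was not tested. Both calls held when any 1 library was left out, but without the 5 control libraries of ZT9 the JTK p of Aqp4 in controls was 0.0570.

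Kcnj10 was highest at ZT17 in both genotypes, as Glul was. Its 5 control values at ZT17 were 1320, 1347, 1381, 1383 and 1399 normalised counts, all above the 6 values of 999, 1004, 1060, 1230, 1251 and 1312 at ZT5. The 4 diabetic values at ZT17 were 1294, 1360, 1416 and 1656, and the 5 values at ZT5 were 1022, 1158, 1162, 1176 and 1331, of which the highest was above the lowest at ZT17. The potassium channel had its fitted maximum at ZT18.3 ± 1.13 h with an amplitude of 7.97% ± 2.32 in control (JTK p = 0.0327, permutation test) and at ZT17.4 ± 1.20 h with 9.34% ± 2.97 in diabetic retinas (JTK p = 0.00818). The call in controls rested on the libraries of ZT17. It was lost when any 1 of the 5 control libraries of ZT17 or replicate 4 of ZT21 was left out (JTK p up to 0.0806), without the 3 lens-rich libraries (0.0605) and without those of steep GC trend (0.0538), and leaving out ZT17 as a whole gave 0.558. In diabetic retinas it was lost without ZT17 (0.101) or ZT21 (0.122), but not without any 1 library.

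Clu was called in diabetic retinas only, which does not show that the genotypes differ. Its control values were 4334, 4391, 4809, 5144, 5152 and 5209 normalised counts at ZT5 and 5244, 5699, 6136, 7407 and 7547 at ZT17, with no overlap between these times. The diabetic values were 3850, 4032, 4312, 4595 and 5113 at ZT5 and 4895, 5516, 5577 and 6712 at ZT17. Relative amplitude was 10.6% ± 3.84 with a maximum at ZT18.00 ± 1.42 h in control (JTK p = 0.0872, permutation test) and 12.5% ± 2.95 at ZT17.2 ± 0.88 h in diabetic retinas (JTK p = 0.00451). In controls the gene was called once replicate 4 or 5 of ZT9 or replicate 4 of ZT13 was left out (lowest JTK p 0.0252), without ZT1 (0.0434), ZT9 (0.0243) or ZT13 (0.0283), and after a correction of the counts for GC content and length (0.0187).

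Apoe, Sox9 and Slc1a3 were called in neither genotype. Apoe had the widest values of the set, from 4494 to 9108 normalised counts among the 5 control retinas at ZT17 alone, and its relative amplitudes of 10.6% ± 5.63 (control) and 11.7% ± 4.07 (diabetic) were close to those of Clu. The control amplitude of Apoe was 5.14% without the libraries of steep GC trend, 5.34% after the GC and length correction and 6.93% without replicate 3 of ZT17 alone, where that of Clu was 8.17% without those libraries and 7.68% after the correction. The amplitude of Slc1a3 was the smallest, 2.46% ± 1.49 (control) and 4.88% ± 1.65 (diabetic), and its means of time points spanned 1.05-fold and 1.10-fold. Sox9 had amplitudes of 8.95% ± 3.89 and 8.22% ± 4.67, with maxima at ZT20.2 ± 1.60 h and ZT21.6 ± 2.25 h.

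Some of these missed calls turned with the choice of libraries. Sox9 in controls was called without replicate 4 or 5 of ZT9, replicate 4 of ZT13 or replicate 5 of ZT17 (lowest JTK p 0.01996), without ZT9 (0.0378), without the lens-rich libraries (0.0291) and without those of steep GC trend (0.0478). In diabetic retinas it was called without replicate 2 of ZT1, replicate 4 of ZT5, ZT9 or ZT13, or replicate 5 of ZT21 (lowest JTK p 0.0232). Apoe in diabetic retinas was called without replicate 4 of ZT9 or replicate 5 of ZT13 (lowest JTK p 0.0344) and after the GC and length correction (0.00818). Slc1a3 in diabetic retinas was called without replicate 3 of ZT13, replicate 4 or 5 of ZT17 or replicate 5 of ZT21 (lowest JTK p 0.0245), without ZT17 (0.0333) and after the correction (0.0434).

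**Figure D2:**
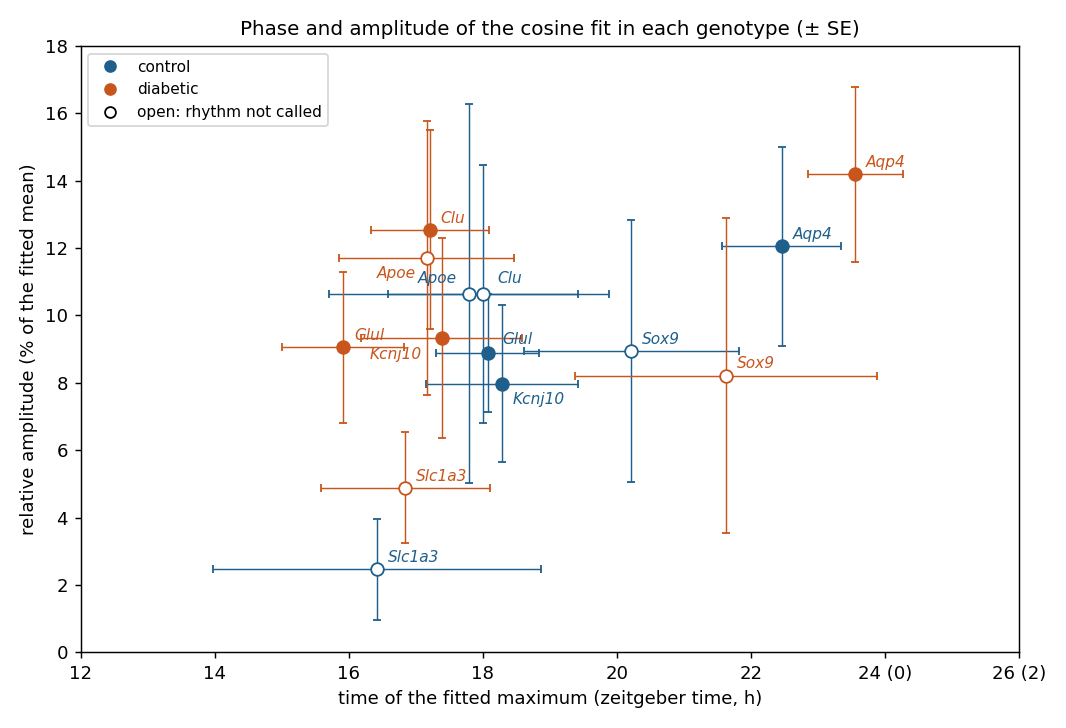
Time of the fitted maximum (x axis, zeitgeber time in hours) against relative amplitude (y axis, % of the fitted mean) of the 24-h cosine fit for each member in control (blue) and diabetic (orange) retinas, with SE bars on both axes and open symbols where no rhythm was called. Aqp4 lies at ZT22.5 and ZT23.6 and Sox9, with wide SE bars that reach the values of Aqp4 in diabetic retinas, at ZT20.2 and ZT21.6, while Glul, Kcnj10, Clu, Apoe and Slc1a3 lie between ZT15.9 and ZT18.3.

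A 24-h cosine fitted to the counts with edgeR, with p-values adjusted over all genes, called 2 members in control and the same 4 as JTK in diabetic retinas. Glul (adjusted p = 0.00529) and Aqp4 (0.00633) passed in control retinas in this fit, where 12.2% of all genes did. In diabetic retinas Aqp4 (adjusted p = 0.000675), Glul (0.00738), Clu (0.0215) and Kcnj10 (0.0374) passed the edgeR test, against 14.3% of all genes. From trough to peak the fitted change was 1.19-fold for Glul in both genotypes and 1.27-fold in control and 1.33-fold in diabetic retinas for Aqp4. Clu and Kcnj10 missed it in controls (adjusted p = 0.0550 and 0.0811 in edgeR). Clu passed there by DESeq2 (adjusted p = 0.0397), with the median ratio factors in edgeR (0.0491), after the GC and length correction (0.0264) and without the lens-rich libraries (0.0416). With the replicate number as a block, both Clu and Kcnj10 passed in controls. Clu kept its call in diabetic retinas without the 4 libraries of steep GC trend (adjusted p = 0.0333 in edgeR) and after the correction for GC content and length (0.000404), but lost it without replicate 3 of diabetic ZT17 alone (0.0817) and without ZT1 (0.0502), ZT5 (0.141), ZT17 (0.135) or ZT21 (0.0824). Kcnj10 lost it there without replicate 3 or 5 of ZT17, 1 or 3 of ZT21, 5 of ZT5 or 1 of ZT9 (adjusted p up to 0.152 in edgeR) and without the libraries of steep GC trend (0.125). It was also lost without ZT1 (adjusted p = 0.09996 in edgeR), ZT5 (0.0628), ZT17 (0.437) or ZT21 (0.144). Slc1a3 passed in diabetic retinas after the correction (adjusted p = 0.0209 in edgeR). Clu was called in controls when 1 of 10 libraries was left out, replicate 6 of ZT1, 4 or 5 of ZT9, 2, 3 or 5 of ZT13, 2 of ZT17 or 2 of ZT21 in control or replicate 4 of ZT9 or 3 of ZT17 in diabetic retinas (edgeR adjusted p down to 0.0156). Kcnj10 was called in controls without replicate 4 of control ZT5 or ZT9 (adjusted p down to 0.0389 in edgeR), and both were called there without ZT13 (0.0134 for Clu and 0.0360 for Kcnj10), as was Clu without ZT9 (0.0274). Glul lost its call without ZT17 (adjusted p = 0.225 in control and 0.185 in diabetic retinas by edgeR), without ZT5 in control (0.0854) and without ZT1 in diabetic retinas (0.0836), and Aqp4 lost it in controls without ZT9 (0.0597).

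The difference between the genotypes in the shape of the day was tested in the same edgeR model. None of the 7 members passed, with 0 at an unadjusted p under 0.05, and 0 of 7 by DESeq2 and by limma-trend. Among all genes 0% were called and 657 of 19120 had an unadjusted p under 0.05. The smallest p of a member was that of Glul, 0.234, whose maximum in diabetic minus control retinas differed by -2.16 h (approximate 95% interval -4.50 to 0.19 h). For Aqp4 this difference was 1.10 h (-1.12 to 3.32 h). For the other members the intervals were wider, from -5.45 to 4.20 h for Apoe, so that a shift of a few hours could not have been seen.

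The third comparison set the middle of the night, ZT17, against the middle of the day, ZT5. In control retinas 3 of 7 members were higher at ZT17, Glul, Kcnj10 and Clu, none was lower, and the median log2 fold change of the set was 0.28, against 15.1% of all genes called, 1419 higher and 1465 lower, and a median of -0.03. In diabetic retinas 2 were higher, Kcnj10 and Clu, with a median of 0.22 over the set, against 7.36% of all genes, 694 higher and 713 lower, and a median of -0.01. The difference between the genotypes in this contrast was called for 0 of 7 members by edgeR (0 at an unadjusted p under 0.05, 0 by DESeq2) and for 0% of all genes, and 732 of 19120 genes had an unadjusted p under 0.05.

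In control retinas Glul rose by 0.28 ± 0.07 on the log2 scale (SE, adjusted p = 0.00339 in edgeR), a 21.5% increase, and this call held when any 1 library was left out. Without the 4 libraries of steep GC trend, 2 of them control retinas of ZT17, it was 0.27 with an adjusted p of 0.0281. Kcnj10 rose by 0.25 ± 0.08 (adjusted p = 0.0340), and lost the call without replicate 1 or 3 of ZT17 or replicate 1, 2 or 3 of ZT5 (adjusted p up to 0.0968 in edgeR), without the lens-rich libraries (0.0510) and without those of steep GC trend (0.0811). Clu rose by 0.40 ± 0.11 (adjusted p = 0.00927), but by 0.24 without the libraries of steep GC trend (adjusted p = 0.246), and it lost the call without replicate 3 of ZT17 alone (0.0593). Apoe had a log2 fold change of 0.39 ± 0.15 (adjusted p = 0.0696 in edgeR), which became 0.04 without the libraries of steep GC trend and 0.51 without the lens-rich libraries (adjusted p = 0.0191), and which passed without replicate 2 or 5 of ZT17 (lowest adjusted p 0.0219). Sox9 stood at 0.28 ± 0.13 (adjusted p = 0.138), and at 0.10 without the libraries of steep GC trend. With the replicate number as a block, both Apoe and Sox9 passed. Slc1a3 stood at 0.06 ± 0.06 and Aqp4 at 0.04 ± 0.10, which became 0.14 (adjusted p = 0.227) and 0.22 (0.216) without the libraries of steep GC trend, and after the correction for GC content and length Aqp4 passed at 0.20 (adjusted p = 0.0323 in edgeR).

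In diabetic retinas Kcnj10 rose by 0.28 ± 0.09 on the log2 scale (adjusted p = 0.0445 in edgeR) and Clu by 0.36 ± 0.12 (0.0477), both just inside the threshold. Kcnj10 lost the call without replicate 3 or 5 of diabetic ZT17 or replicate 1, 2, 3 or 5 of diabetic ZT5 (adjusted p up to 0.268). Clu lost it in 17 of the 58 fits that leave out 1 library, those without replicate 1, 3 or 5 of diabetic ZT17 or replicate 1, 2, 3 or 5 of diabetic ZT5 (adjusted p up to 0.259 in edgeR), replicate 1 or 5 of diabetic ZT21, or, in control, replicate 4 of ZT1, 3, 4 or 6 of ZT5, 1 of ZT13, 5 of ZT17 or 1 or 3 of ZT21. Glul missed the threshold at 0.22 ± 0.08 (adjusted p = 0.0569), passed it by DESeq2 (adjusted p = 0.0303), which called 3 members here, and after the GC and length correction in edgeR (0.0193), and passed it without replicate 3 or 5 of control ZT9, 5 of diabetic ZT1, 4 of ZT5, 4 of ZT9, 3 of ZT13 or 4 of ZT17 (adjusted p down to 0.0144 in edgeR). Glul also passed with the replicate number as a block. Without the libraries of steep GC trend none of the 7 passed in diabetic retinas. Kcnj10 then stood at 0.21, Clu at 0.28 and Glul at 0.19. Apoe had 0.36 ± 0.17 with all libraries and 0.24 without those of steep GC trend, and Sox9 0.18 ± 0.14 and 0.02. The library that decided the Sox9 value was replicate 3 of diabetic ZT17, without which alone it was 0.0099. Slc1a3 had 0.11 ± 0.06 with all libraries and 0.11 without those of steep trend, and Aqp4 -0.11 ± 0.11 and -0.04.

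**Figure D3:**
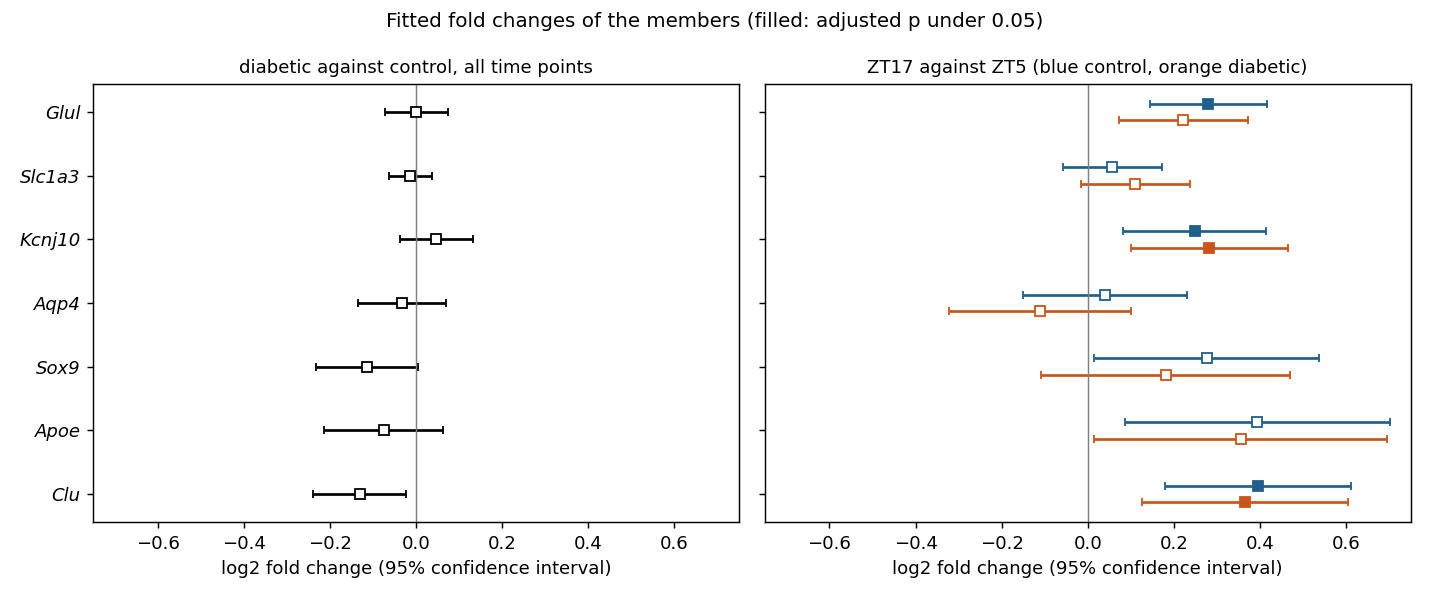
Log2 fold changes (x axis) with 95% confidence intervals from the edgeR fits for the 7 members (y axis): diabetic against control retinas over all time points on the left, and ZT17 against ZT5 in control (blue) and diabetic (orange) retinas on the right, with filled symbols where the adjusted p was under 0.05. On the left all estimates lie between -0.13 and 0.05, and on the right Glul is filled in control, and Kcnj10 and Clu in both genotypes.

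Several library quantities moved with the night values. Markers of the retinal pigment epithelium, the cell layer behind the photoreceptors, summed to a median of 68.8 CPM (34.9 to 150.9) at ZT5 and 164.8 CPM (118.2 to 197.5) at ZT17 in control retinas and to 34.0 CPM (25.0 to 36.4) and 130.5 CPM (63.9 to 184.2) in diabetic retinas, and 5 of its 6 markers were called higher at ZT17 in each genotype. All 6 markers were among the expressed genes. Over the 58 libraries the log2 level of the members correlated with this sum at r = 0.46 for Slc1a3, 0.40 for Clu, 0.37 for Glul, 0.22 for Apoe, 0.21 for Kcnj10, -0.03 for Sox9 and -0.15 for Aqp4. Bipolar cell markers summed to medians of 1326 CPM at ZT5 and 1403 CPM at ZT17 in control and 1180 and 1297 CPM in diabetic retinas, with 3 of 5 markers called higher at ZT17 in control and 0 of 5 in diabetic retinas, and their sum correlated with the members at r of 0.06 to 0.27. Amacrine cell markers summed to medians of 743 and 764 CPM in control and 750 and 791 CPM in diabetic retinas, with 1 of 5 called higher at ZT17 in control and 0 of 5 in diabetic retinas. The amacrine sum correlated with the members more closely than the pigment epithelium did for all but Slc1a3, at r = 0.73 for Kcnj10, 0.68 for Glul, 0.62 for Clu, 0.58 for Apoe, 0.48 for Sox9, 0.33 for Slc1a3 and 0.24 for Aqp4. Cone markers went the other way, with medians of 839 CPM at ZT5 and 736 CPM at ZT17 in control and 771 and 721 CPM in diabetic retinas, and 2 of 5 were called lower at ZT17 in control and 1 of 5 in diabetic retinas. Their sum had r of -0.50 with Glul, -0.40 with Kcnj10, -0.38 with Apoe, -0.32 with Clu, -0.29 with Sox9, -0.18 with Slc1a3 and 0.09 with Aqp4. The sum of the rod markers had r of 0.62 with Sox9, 0.58 with Apoe and 0.56 with Clu, down to -0.07 with Slc1a3. In each genotype 1 of 5 rod markers was called lower at ZT17. The Müller glia sum, which holds Glul and Slc1a3, had r of 0.81 with Glul, 0.77 with Slc1a3 and 0.64 with Kcnj10, down to 0.19 with Sox9. Of its 7 markers 2 were called higher at ZT17 in control and 1 in diabetic retinas. The microglia sum had r of 0.59 with Clu, 0.52 with Slc1a3, 0.49 with Apoe and 0.46 with Glul, with no microglia marker called at ZT17 against ZT5. The endothelial sum was lower at ZT17, with medians of 256 and 215 CPM at ZT5 and ZT17 in control and 238 and 217 CPM in diabetic retinas, with 1 of 5 markers called lower in control and 1 of 5 called higher in diabetic retinas, and had r of 0.36 with Aqp4 and -0.32 with Glul. With the GC trend of the library the correlations were 0.77 for Apoe, 0.72 for Clu, 0.70 for Sox9, 0.56 for Kcnj10 and 0.54 for Glul, with -0.15 for Slc1a3 and -0.39 for Aqp4. The part of these quantities in the results was not tested beyond the alternatives given. In whole retina, more Müller glia and more RNA per Müller cell cannot be told apart.

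**Figure D4:**
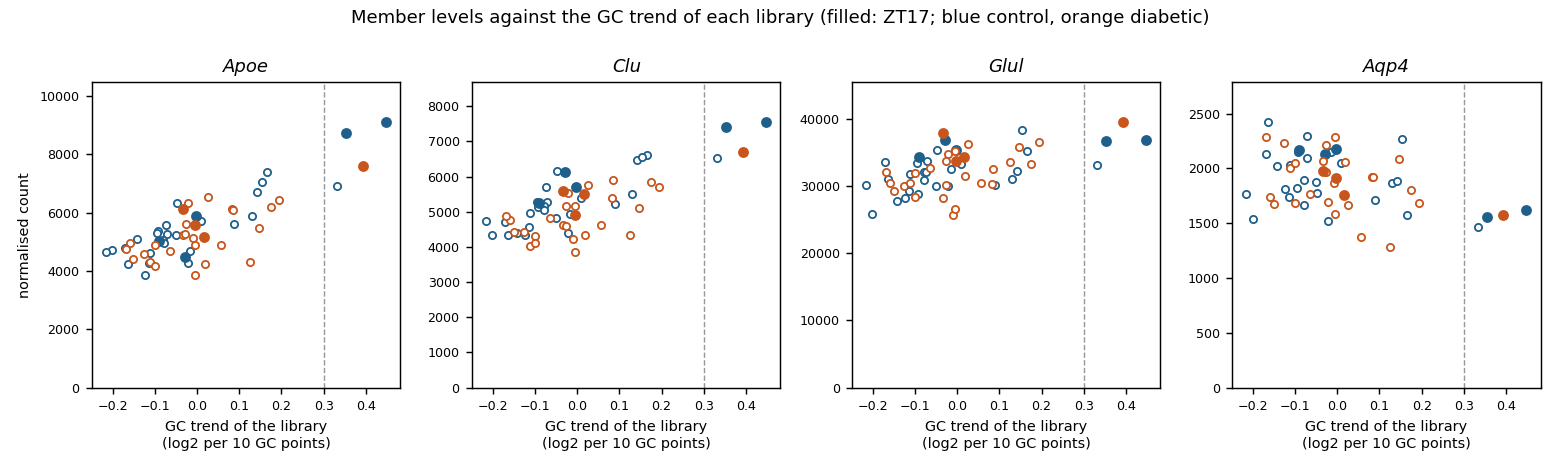
Normalised counts (y axis, from 0) of Apoe, Clu, Glul and Aqp4 in each of the 58 libraries against the GC trend of the library (x axis, log2 change per 10 percentage points of GC content), with ZT17 filled, control blue and diabetic orange. The dashed line at 0.3 parts off the 4 libraries of steep trend, 3 of which, all at ZT17, hold the highest 3 values of Apoe and of Clu, while the control library of ZT9 ranks 6 of 58 for both, and all 4 have low values of Aqp4, between 1468 and 1623.

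After the counts were corrected for GC content and transcript length, Glul, Aqp4 and Kcnj10 were still called in both genotypes. Over all 19120 genes the JTK calls went from 4172 to 4840 in control and from 4565 to 5225 in diabetic retinas. The JTK p of Aqp4 became 2.3e-05 in control and 8.0e-06 in diabetic retinas, that of Glul 0.000336 and 0.00193, and that of Kcnj10 0.0448 and 0.00818. Clu was then called in both genotypes, at 0.0187 and 0.000367. The control maximum of Aqp4 moved from ZT22.5 to ZT21.6 and that of Glul from ZT18.07 to ZT18.01 in this correction.

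The members differed in how closely they varied together from retina to retina. Over the 58 libraries, the log2 levels of Apoe and Clu had a Pearson's r of 0.90, those of Glul and Kcnj10 0.84, those of Apoe and Sox9 0.77 and those of Glul and Clu 0.75. Clu also had r of 0.71 with both Kcnj10 and Sox9, so these pairs were not separate groups. Aqp4 went with none of these, with r between -0.16 and 0.36. After the mean of each genotype and time point was taken away, r was 0.91 for Apoe and Clu and 0.81 for Glul and Kcnj10, so these pairs varied together among retinas of the same group. Aqp4 then had its highest r with Slc1a3, at 0.60. The libraries share depth, dissection and GC trend. After the GC and length correction, r was 0.79 for both the pair of Apoe and Clu and the pair of Glul and Kcnj10, and Aqp4 had r of 0.25 to 0.52 with the other members. Glul then had r of 0.70 with Slc1a3 and 0.68 with Clu.

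**Figure D5:**
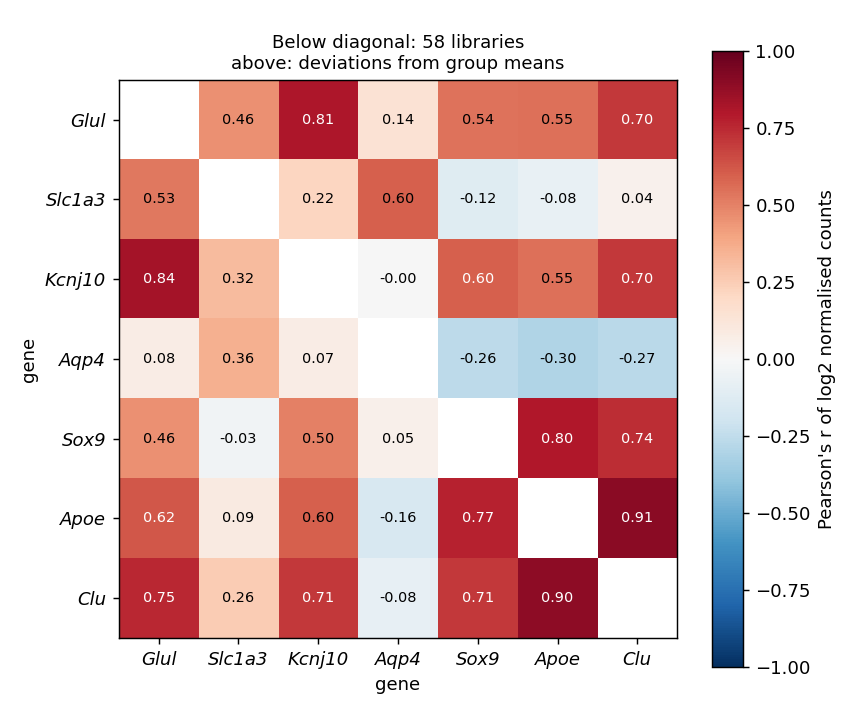
Pearson's r between the log2 normalised counts of each pair of members (both axes list the 7 genes, colour from -1 to 1), over 58 libraries below the diagonal and for deviations from the mean of genotype and time point above it. Apoe with Clu (0.90 and 0.91) and Glul with Kcnj10 (0.84 and 0.81) are the strongest pairs, and Aqp4 stands apart below the diagonal.

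Among 11196 genes with a median above 100 normalised counts, the genes whose levels were most like those of each member over the 58 libraries were named by the highest r. For Glul these were Tubb5 (0.86), Gfra2 (0.85) and Tuba1a (0.85), and for Kcnj10 Vat1l (0.85), Sparcl1 (0.85) and Tubb5 (0.84), so Tubb5, a tubulin gene, was shared. Apoe was most like Aldh2 (0.91), Clu (0.90) and Pdk2 (0.86), and Clu most like Apoe (0.90), Aldh2 (0.89) and Prelp (0.89). Sox9 was most like Ppp1r11 (0.83), Gnat1 (0.82), the rod transducin gene, and Zfp385a (0.82). Slc1a3 was most like Itm2b (0.80), Rcn2 (0.78) and Gpr37 (0.77), and Aqp4 most like Slc39a10 (0.80), Slc4a10 (0.73) and Sema5a (0.72), with no gene shared with the other members.

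Lists of further genes with the same functions gave few genotype calls. Of 12 expressed genes of glutamate and glutamine handling, 1 was higher in diabetic retinas and none lower, with a median log2 fold change of 0.01 against 0.00 over all genes. This was Slc38a2, a carrier of glutamine and other neutral amino acids, which rose by 0.39 ± 0.05 on the log2 scale (SE, adjusted p = 2.2e-07 in edgeR). Of 13 expressed genes of potassium and water handling and end-foot anchoring, 12 glial transcription factors and Notch genes, 12 lipid transport genes and 15 other Müller glia genes, none was called, with medians of 0.02, -0.03, 0.04 and 0.01. Of 12 genes of reactive glia, Stat3, the transcription factor of cytokine signalling in gliosis, rose by 0.14 ± 0.03 (adjusted p = 0.0112 in edgeR), and Fgf2, a growth factor, fell by 0.17 on the log2 scale (adjusted p = 0.0383). The 76 listed genes thus held 3 genotype calls, or 3.95%, beside 2.99% of all expressed genes.

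Rhythm calls in the same lists are read against the 21.8% and 23.9% of all expressed genes that JTK called in control and diabetic retinas. Of the 76 expressed genes of the 6 lists together it called 27 in control and 30 in diabetic retinas, or 35.5% and 39.5%. It called 5 of the 12 glutamate genes in control and 6 in diabetic retinas, 4 and 3 of the 13 potassium and water genes, 1 and 3 of the 12 transcription factors, 4 and 4 of the 12 lipid genes, 8 and 8 of the 15 other Müller genes, and 5 and 6 of the 12 reactive genes. The transcription factors in control, at 1 of 12, lay below the share of all genes, and the potassium and water genes in diabetic retinas, at 3 of 13, near it. These counts are small, and no list was tested against all genes. By the control cosine test of edgeR, the 2 genes of smallest p in each list beside the members were as follows. Aqp1, a second water channel, changed 1.97-fold from trough to peak with its maximum at ZT18.9 (adjusted p = 6.8e-11), and Slc1a7, a glutamate transporter of retinal neurons, changed 1.34-fold with its maximum at ZT18.9 (adjusted p = 1.9e-07). Slc1a2, the glutamate transporter GLT-1, peaked at ZT19.0 and Sntb1, a syntrophin, at ZT18.7, both just outside the threshold (adjusted p = 0.0549 and 0.0539).

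Of the other Müller genes, Car14, a carbonic anhydrase, changed 1.42-fold with its maximum at ZT13.8 (adjusted p = 1.7e-05 in edgeR), and Prdx6, an antioxidant enzyme, 1.24-fold with its maximum at ZT16.4 (0.00269). Among the lipid genes Abca1, the cholesterol exporter that loads apolipoprotein E, peaked in the day at ZT7.67 with a 1.29-fold change (adjusted p = 0.00104), where the fitted control maxima of Apoe and Clu were at ZT17.7 and ZT17.9 in the same fit, while Abcg4, another sterol exporter, peaked at ZT18.7 (0.0286). Notch1 peaked at ZT20.3 (0.00791) and Rax, a retinal homeobox factor, at ZT18.4 (0.0871, outside the threshold). Of the reactive genes, Edn2, an endothelin, peaked at ZT8.31 (0.0124) and Nes, the intermediate filament nestin, at ZT22.9 (0.0296). In the diabetic cosine test of edgeR, Aqp1, Slc1a7, Car14, Prdx6 and Abca1 passed again, and Slc1a2 passed (adjusted p = 0.00434). Notch1 (0.149), Abcg4 (0.472), Edn2 (0.291), Nes (0.0513), Sntb1 (0.278) and Rax (0.299) did not. No gene of these lists had a rhythm that differed between the genotypes by the edgeR test of the difference.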

How the data were processed

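Retinal RNA (ribosomal RNA removed, KAPA HyperPrep with RiboErase, paired reads) was sequenced per retina. The authors aligned reads with STAR (2.7.4a) to GRCm38.p5 with Gencode M15 and deposited raw HTSeq (0.11.1) counts per gene, unnormalised and unfiltered, and the strand setting is not given in the sources used here. From these counts, DESeq2 (1.42.0) size factors gave the normalised counts. Tests were edgeR (4.0.16) quasi-likelihood fits with TMM factors on the 19120 genes with a median above 4, over all 58 libraries. The fit held genotype alone for the comparison over all time points, 12 groups for the contrasts, or a 24-h cosine per genotype. Alternatives were limma (3.58.1) and DESeq2, in R 4.3.3. Empirical JTK_CYCLE was rewritten in Python 3.11.15 with 30 waveforms and 1000000 shuffled series, and harmonic regression by least squares gave amplitudes and maxima. Among 113 replicate pairs none agreed within sampling noise (lowest chi-square per degree of freedom 1.86). GC content was known for 96.1% of genes. Of the edgeR fits, those of genotype and of the cosine were tested on simulated counts. The test of a difference in rhythm was tried only on counts with the same rhythm in both genotypes. The contrasts of the 12 groups, DESeq2, limma and the GC and length correction were not tested in this way. Named genes are the 7 members, the 3 genes most like each, and, from each list, genes passing the genotype or rhythm-difference test and the 2 with the smallest control cosine p. Members and lists were chosen with earlier results of these data known.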

Additional observations from a re-analysis of the deposited data

Results flagged for a closer look

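Of the 84 groups of 4 to 6 retinas (7 members, 12 groups), 6 held a retina far from the others, where chance alone gives about 1 in 20 groups. In Aqp4 these were 3 diabetic retinas below their group, replicate 5 of ZT5 (1587.1 normalised counts, the next being 1972), replicate 5 of ZT9 (1378.3, the next 1676) and replicate 5 of ZT13 (1279.3, the next 1664). In Sox9 they were 2 diabetic retinas above their group, replicate 4 of ZT9 (582.17, the next 421) and replicate 3 of ZT17 (708.32, the next 485), of which the last is 1 of the libraries of steep GC trend. In Apoe, replicate 2 of control ZT5 (3864.8 normalised counts) lay below the next retina at 5070. The rhythm calls of Aqp4 in diabetic retinas held without any 1 of these 3. No member passed the test of a difference in rhythm or in the ZT17 against ZT5 contrast between the genotypes.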

How the results depend on the processing

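The members that passed a contrast in the report kept their direction in every alternative. Aqp4, which passed for ZT17 against ZT5 in control only after GC and length correction, ran from -0.0093 to 0.22 there on the log2 scale. Further, no member was called for genotype in any alternative run, which took other scaling, filters and fits, left out 1 library or time point, and, chosen after the data were seen, left out the lens-rich or steep-GC libraries or corrected for GC content and length. Members called: in the control cosine fit 2, but 4 without ZT13 and 1 without ZT17 or ZT5 (2 to 4 without 1 library, 3 by DESeq2); in the diabetic cosine fit 4, but 5 after GC correction, 1 without ZT1 or ZT17 and 2 without ZT21 or ZT5 (2 to 4); for ZT17 against ZT5 in control 3, but 1 without the steep-GC libraries (1 to 4), and in diabetic retinas 2, but 0 without those libraries or without a filter on low counts (0 to 3; 3 by DESeq2 or after GC correction); by JTK in control 3, but 1 by adjusted p or by a fold between means of time points (2 to 5), and in diabetic retinas 4, but 3 by adjusted p, by fold of means or without ZT21, and 6 after GC correction (4 to 6). The cause was not tested.

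All genes called over all time points: 572, but 930 after GC and length correction, 919 with time point as a term, 888 from the mean of 12 groups, and 322, 267, 357, 239 and 225 without ZT1, ZT5, ZT9, ZT17 and ZT21 (431 to 611 without 1 library). At ZT1 2, but 6 (DESeq2), 8 (GC correction), 0 (libraries of that time alone), 4 (without lens-rich libraries) and 1 (no filter), with 0 to 4 without 1 library. At ZT5 4, but 24 (DESeq2), 10 (GC correction) and 28 (that time alone), with 2 to 8. At ZT9 1, but 4 (DESeq2), 7 (GC correction), 5 (that time alone), 3 (no filter) and 0 without the lens-rich or the steep-GC libraries, with 0 to 2. At ZT13 0, but 1 (DESeq2) and 2 (GC correction), with 0 to 1. At ZT17 32, but 87 (DESeq2), 178 (GC correction), 0 (that time alone) and 15 (without steep-GC libraries), with 3 to 96. At ZT21 0, but 2 (DESeq2), 9 (GC correction), 2 (without steep-GC libraries) and 1 (no filter), with 0 to 1. For ZT17 against ZT5, 2884 in control, but 1051 without the steep-GC libraries (1373 to 3718), 1407 in diabetic, but 2185 after GC correction (882 to 1738), and 0 for the difference, but 1 by DESeq2 or without the lens-rich libraries (0 to 1). For the cosine fits, 2337 in control, but 757 and 1166 without ZT17 and ZT5 (1742 to 3165), 2736 in diabetic, but 1347, 1549 and 1801 without ZT17, ZT21 and ZT9 (2165 to 3249), and 0 for the difference, but 3 without a filter and 1 without ZT1 (0 to 1). By JTK 4172 in control, but 1573 by adjusted p, 2532 by fold of means and 2691 without ZT17 (3643 to 5079), and 4565 in diabetic, but 1874 and 2710 (3974 to 4946). After GC and length correction JTK called 4840 genes in control and 5225 in diabetic retinas.

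With the replicate number as a block, 4 members passed the control cosine fit of edgeR, among them Clu (adjusted p = 0.0144) and Kcnj10 (0.0414). For ZT17 against ZT5, 3 members passed in diabetic retinas, among them Glul, and 5 in control, among them Apoe and Sox9. That control contrast was passed by 4104 genes. Between the genotypes, 10 genes then differed at ZT5, 2 at ZT9, 60 at ZT17 and 1 in the difference of ZT17 against ZT5. Of 26 same-numbered pairs of groups 15 had a correlation of deviations above 0.1 (median 0.13, -0.22 to 0.58). The labels do not say what the replicate number stands for, and the main fits hold no block. Whether libraries of the same number share an effect was not tested. At 4 to 6 retinas per group and a spread of 6.30% to 19.95% of the mean, small changes of Apoe and Sox9 could not be told from none.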
